A study of Capra hircus with 24 samples.

Results

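DNA replication and entry into S phase are described here through 38 genes whose products license, start and carry out genome copying, in papilla cells of cashmere goats. The genes were chosen by symbol, and all 38 met the requirement of a deposited value of at least 1 in at least 3 libraries, out of 13049 genes that met it and 20326 listed. Each of the 38 was above 1 in every one of the 24 libraries, the lowest value being 1.01 for CDC6, so the requirement removed none of them and selected none through a single group.

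Dermal papilla cells are mesenchymal and sit under the hair bulb, where they signal to the epithelium that makes the fibre. RNA was sequenced from papilla cells of Capra hircus skin, from secondary follicles, which grow cashmere, and primary follicles, which grow guard hair. Labels place June libraries in early anagen, the start of hair growth, and October libraries in anagen, and each follicle type and month was sampled in females and males, with no genetic change or drug named. This makes 8 groups of 3 libraries: secondary June female, secondary June male, primary June female, primary June male, and the same 4 for October. Each set of 3 is described by the labels as biological replicates, with no word on whether these were separate animals, so the spread behind each p-value is that between libraries and may be technical. Growth stage, season and collection cannot be told apart, since each goes with the month.

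Deposited values are a normalised signal with library totals of 959766 to 1045876, and read depth is unknown. Differences are given as log2(value + 1), a scale that makes changes of weak genes look smaller, and calls were made below an adjusted p of 0.05 (limma, Benjamini-Hochberg over all 13049 genes). Within groups, libraries correlated across genes, which are not independent replicates, with r from 0.993 to 0.997. Of 18 papilla markers, 14 passed the requirement. VCAN, the versican core protein, had group means from 211 to 501, while SOX2, a transcription factor of papilla cells, stood at 0.257 and 0.26 in secondary June females and males and 0.333 in secondary October females against 12.4 to 15.9 in the other 5 groups. ALPL, also among the 14, had a group mean of 2.03 in primary June females and of 0.0133 to 0.733 in the other groups. CORIN, HHIP and PROM1 stayed under 1 in all libraries. Labels of sex were not checked here: SRY was listed at 0 in all 24 libraries, and the other 8 sex chromosome genes looked for were not analysed here.

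Replication is prepared in G1, when the origin recognition complex with CDC6 and CDT1 loads the MCM2 to MCM7 helicase onto origins. Cyclin E with its kinase, and the E2F transcription factors that switch on most of these genes, carry the cell into S phase, where CDC45 and the GINS complex activate the helicase and polymerases copy both strands behind the PCNA clamp. Papilla cells of a growing follicle divide little, and levels of these transcripts are commonly read as a sign of how many cells are cycling. In bulk RNA, fewer cycling cells and less of each transcript per cycling cell cannot be told apart.

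The 38 genes were highest in secondary cells in June and lowest in primary cells in June, with the 4 October groups between them. Their summed signal was 964 to 979 in the 3 secondary June female libraries and 915 to 934 in the secondary June male ones. Primary June libraries held 517 to 543 in females and 437 to 443 in males. In October the sums were 722 to 735 in secondary females, 686 to 706 in secondary males, 757 to 785 in primary females and 682 to 689 in primary males. Neighbours in this order overlapped only for secondary and primary October males, whose sums of 698 ± 10.6 and 685 ± 3.68 (SD, n = 3) did not differ beyond their spread. By single genes, 33 of the 38 had their highest group mean in secondary June cells (19 in females and 14 in males), where 9.64% and 19.1% of all tested genes had theirs. The lowest group mean was that of primary June males for 35 of the 38, against 18.7% of all tested genes. MCM10 and RRM1 were lowest in primary June females, and POLA1 in secondary October females.

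**Figure D1:**
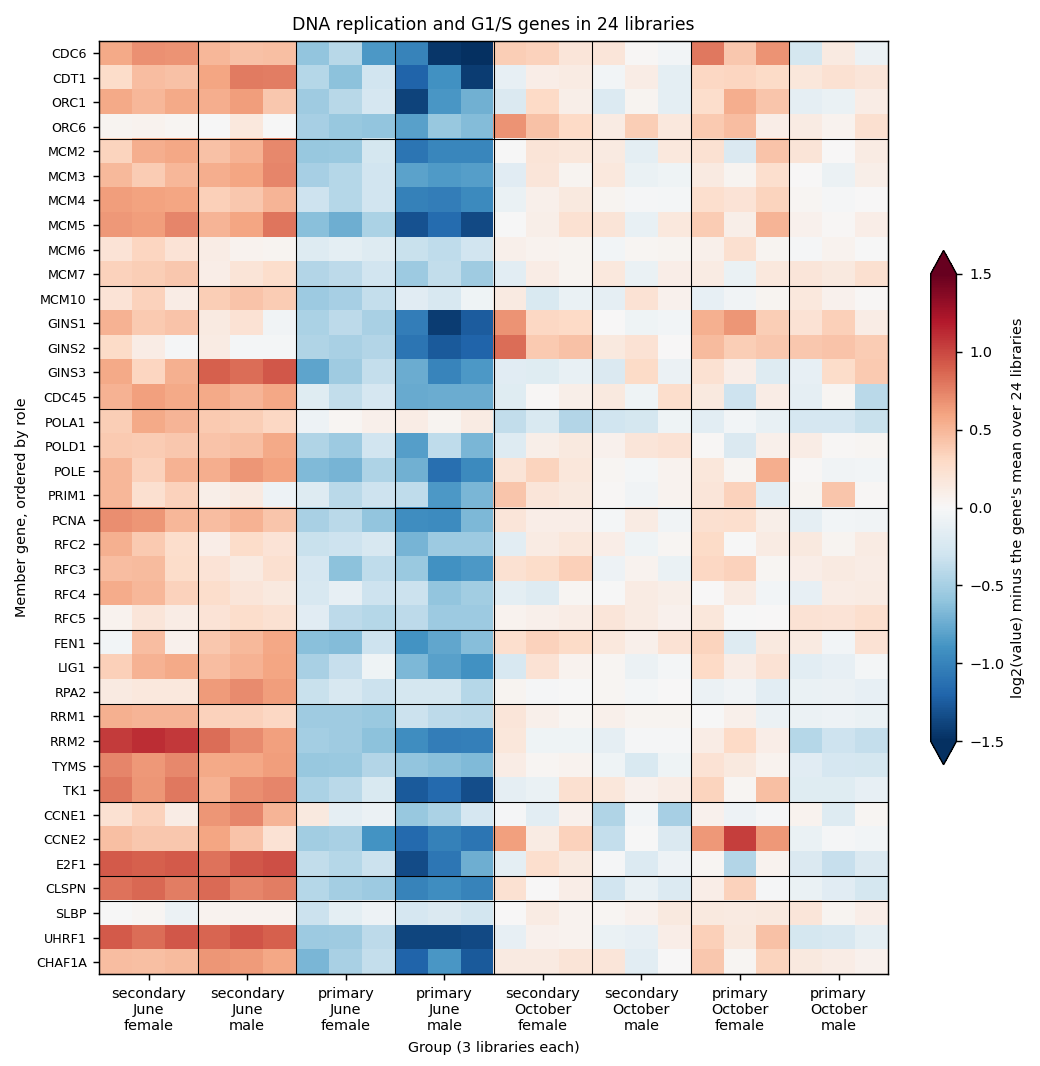
Heat map of the 38 genes (rows, ordered by role, with lines between roles) in the 24 libraries (columns, 3 per group). Colour gives log2 of the deposited value minus that gene's mean over the 24 libraries. Secondary June columns are mostly red, primary June male columns are the deepest blue, and October columns are pale.

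One question of the design is what sets cashmere-producing follicles apart from guard hair follicles when growth begins. In June, 37 of the 38 genes were called higher in secondary cells in females, where 25% of all tested genes were called higher, and 38 of 38 in males, where 30.7% were. Differences of at least 2-fold in value + 1 were found for 9 of the 38 in females and 22 in males, against 2.35% and 4.54% of all tested genes. For weak genes this is a stricter limit than 2-fold in the value itself. The median difference was 0.74 in females and 1.13 in males, with 0.0027 and 0.0091 over all tested genes. All 3 secondary libraries lay above all 3 primary ones for 36 of the 38 in females and 38 in males, against 29.4% and 33.8% of all tested genes. For the other comparisons no such share is given, so overlap there only describes the genes named. These samples had already been analysed when the list was proposed, so the direction is a description of the list and not independent evidence of it.

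Licensing factors were higher in secondary June cells by 0.52 to 0.97 in females and 0.64 to 1.58 in males. CDC6, which helps to load the helicase, had values of 4.87, 5.28 and 5.25 in secondary and 2.18, 2.45 and 1.81 in primary females. In males they were 4.64, 4.46 and 4.50 against 1.64, 1.19 and 1.01. Every secondary library was above every primary one, with differences of 0.97 (SE 0.1, adjusted p = 5.74e-08) in females and 1.29 (SE 0.1, adjusted p = 2.8e-10) in males. CDT1, its partner in loading, stood at 7.85, 8.94 and 8.79 in secondary and 4.79, 4.24 and 5.30 in primary females, a difference of 0.72. In males the CDT1 values were 9.76, 11.1 and 11.0 against 2.81, 3.45 and 2.41, a difference of 1.58 (SE 0.089, adjusted p = 5.65e-13). The groups did not overlap in either sex. Of the origin recognition subunits, ORC1 differed by 0.74 and 1.11 in females and males, and ORC6 by 0.52 and 0.64.

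Among the 6 subunits of the MCM helicase, which unwinds DNA at the fork, MCM5 had the largest June difference, 1.23 (SE 0.097, adjusted p = 4.15e-10) in females and 1.80 (SE 0.097, adjusted p = 2.58e-13) in males, and MCM6 the smallest, 0.41 and 0.39. MCM2 was at 22.7, 26.3 and 27.0 in secondary and 12.2, 12.3 and 15.0 in primary females, and at 24.4, 25.9 and 29.7 against 8.46, 9.18 and 9.18 in males. Its differences were 0.90 and 1.47, and the lowest secondary library lay above the highest primary one in each sex. CDC45, which joins the helicase to activate it, stood at 9.63, 10.3 and 9.95 in secondary and 5.89, 5.17 and 5.62 in primary females. In males it was at 9.91, 9.52 and 10.0 against 3.97, 3.99 and 4.00. Here too the groups were apart, by 0.74 in females and 1.12 in males. The GINS subunits GINS1, GINS2 and GINS3, which act with CDC45, differed by 0.81, 0.47 and 0.72 in females and 1.14, 0.89 and 1.23 in males.

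Polymerase genes were higher in secondary June cells as well. POLA1, the catalytic subunit of the polymerase that extends primers, had 9.68, 11.1 and 10.6 in secondary and 7.11, 7.65 and 7.87 in primary females, and 9.80, 9.62 and 9.27 against 8.06, 7.68 and 8.13 in males. Its male difference of 0.24 (SE 0.065, adjusted p = 0.00336) was the lowest of the 38 in that comparison, although the libraries did not overlap. POLD1 and POLE, catalytic subunits of the lagging and leading strand polymerases, differed by 0.73 and 0.72 in females and 0.98 and 1.03 in males. PCNA, the sliding clamp that holds polymerases on DNA, stood at 58.0, 56.5 and 50.7 in secondary and 25.6, 27.1 and 23.8 in primary females. In males PCNA was at 49.3, 51.4 and 47.9 against 18.8, 18.6 and 22.5. These differences, 1.08 and 1.27, were above those of the 4 clamp loader subunits RFC2 to RFC5, which ran from 0.42 to 0.76 in females and 0.64 to 0.89 in males. FEN1 and LIG1, which process and seal lagging strand fragments, differed by 0.64 and 0.72 in females and by 1.16 and 1.22 in males.

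Nucleotide supply held some of the largest values. RRM2, the regulated subunit of ribonucleotide reductase, had 104, 108 and 105 in secondary and 35.3, 34.6 and 32.9 in primary females, the largest female difference at 1.60 (SE 0.066, adjusted p = 4.01e-15). In males RRM2 stood at 89.7, 82.0 and 77.0 against 26.4, 24.6 and 24.7, a difference of 1.68. TK1, thymidine kinase of the cytosol, was at 46.1, 42.3 and 46.2 against 19.2, 20.1 and 22.7 in females. Its values in males were 38.2, 43.4 and 44.2 against 11.1, 11.9 and 10.6, a difference of 1.81 (SE 0.094, adjusted p = 1.2e-13). Libraries of the follicle types were well apart for both genes. TYMS, which makes thymidylate, differed by 1.20 and 1.19, and RRM1, the large reductase subunit, by 1.03 and 0.69.

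The cyclin E genes, which drive the G1/S step, were unequal. CCNE1 had 5.34, 5.79 and 4.91 in secondary and 5.05, 4.15 and 4.28 in primary females, groups that overlapped, and it was the single gene not called there (0.21, SE 0.097, adjusted p = 0.0768). It was called without primary June female 1 (0.28, adjusted p = 0.0351) or secondary October male 2 (0.21, adjusted p = 0.0461). In males CCNE1 stood apart at 7.22, 7.53 and 6.49 against 3.08, 3.28 and 3.83, a difference of 0.88 (SE 0.097, adjusted p = 5.44e-08). CCNE2 was at 13.4, 13.0 and 13.0 against 6.87, 7.00 and 5.29 in females. In males its values were 14.9, 13.2 and 11.4 against 4.38, 4.89 and 4.62. Both CCNE2 differences were called, at 0.95 and 1.32. E2F1, an activator of this gene set, had 14.9, 14.6 and 14.9 against 6.07, 5.82 and 6.28 in females and 13.9, 15.0 and 15.4 against 3.10, 3.72 and 4.75 in males, differences of 1.16 and 1.71. CLSPN, the checkpoint mediator claspin, differed by 1.07 and 1.38.

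UHRF1, which brings the maintenance methyltransferase to newly copied DNA, was among the highest in each sex. Its female values were 16.8, 15.9 and 17.0 in secondary and 6.10, 6.16 and 6.76 in primary cells, a difference of 1.26 (SE 0.07, adjusted p = 7.43e-13). In males they were 16.3, 17.1 and 16.5 against 3.43, 3.44 and 3.49, the largest male difference at 1.99 (SE 0.07, adjusted p = 1.21e-16). CHAF1A, a subunit of the assembly factor that puts histones on new DNA, differed by 0.85 and 1.48. SLBP, which binds the stem-loop of histone mRNAs, differed least in females (0.16, SE 0.053, adjusted p = 0.0148), where its groups overlapped, and little in males (0.29). The female call of SLBP ended without primary June female 1 (0.09, adjusted p = 0.148) or secondary June female 2 (0.14, adjusted p = 0.0707), and with the compared groups alone (0.16, adjusted p = 0.0622).

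**Figure D2:**
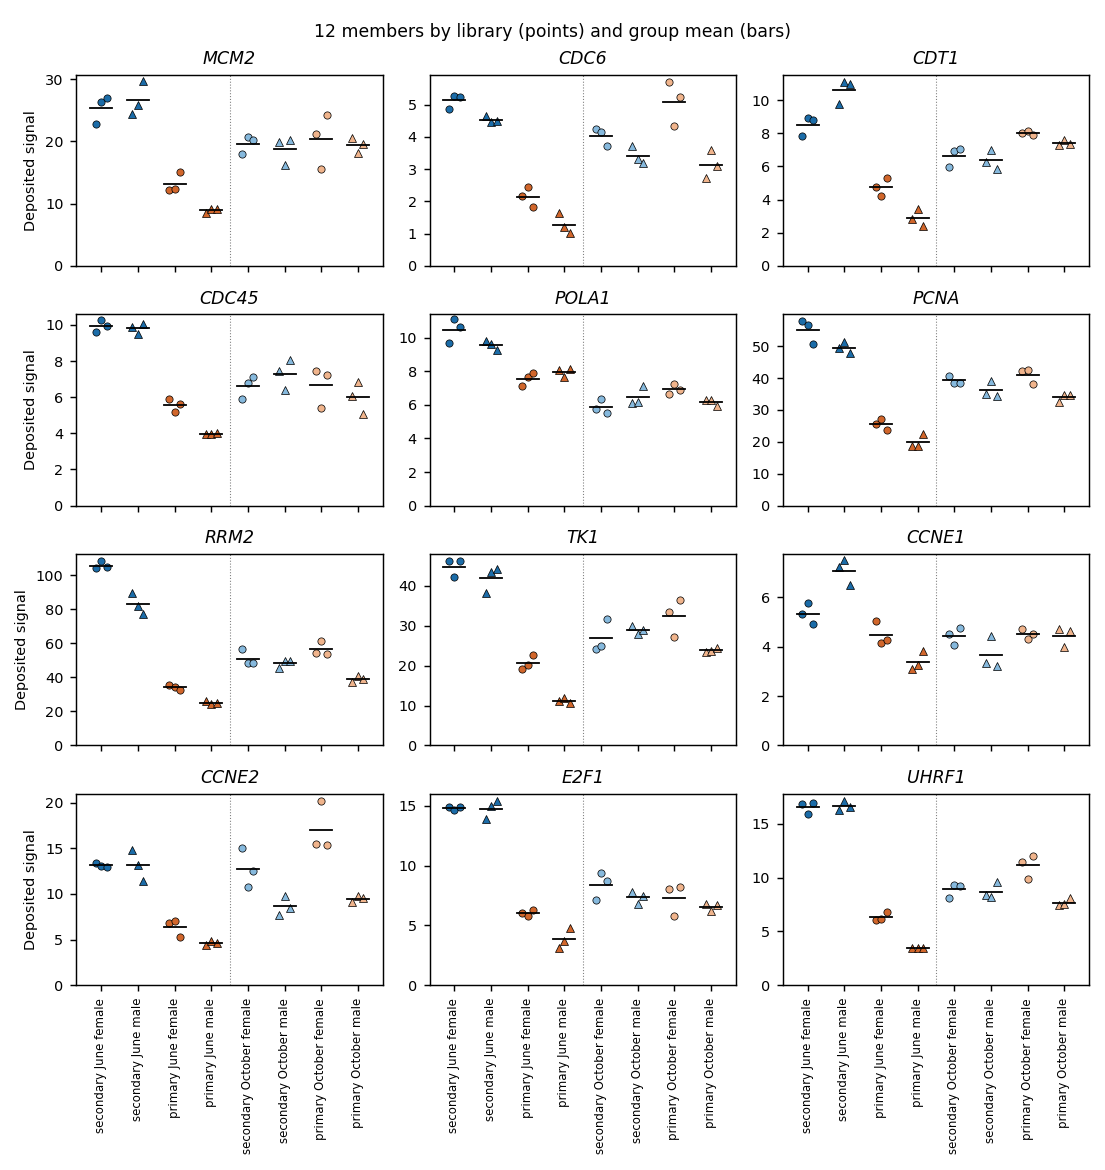
Deposited signal (vertical axes, starting at 0) of 12 genes in each library, by group (horizontal axis, June left and October right of the dotted line). Circles are female and triangles male libraries, and bars are group means. RRM2 runs from 104 to 108 in secondary June females and from 24.6 to 26.4 in primary June males, with all October libraries between.

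By October, in active growth, these genes differed little between the follicle types. In females 8 of the 38 genes were called lower in secondary cells, 21.1% of the list, where 17.2% of all tested genes were called lower, so this share lies near the background. In males 2 were called, both higher, where 10.9% of all tested genes were called higher. The medians were -0.07 and -0.0011. In neither sex were 28 of the 38 genes called, and the share of all tested genes called in neither was not counted. In the male comparison the direction of the calls depended on the scaling: with each library brought to a common total, 1 gene was called higher and 6 lower. The female calls rest on the fit of all 24 libraries: with the compared groups alone no gene was called by limma, while 7 had an unadjusted p under 0.05.

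The 8 genes lower in secondary October females were CCNE2, UHRF1, ORC1, CDC6, TK1, CDT1, MCM4 and POLA1, at -0.39 to -0.21. CCNE2 had 15.1, 10.7 and 12.5 in secondary and 15.4, 20.2 and 15.4 in primary females (-0.39, SE 0.12, adjusted p = 0.0118), and UHRF1 8.15, 9.34 and 9.25 against 11.5, 9.87 and 12.1 (-0.29, SE 0.07, adjusted p = 0.00227). The CCNE2 call ended without primary October female 2 (-0.27, adjusted p = 0.081) or secondary October female 2 (-0.28, adjusted p = 0.0897). Both genes were lower in every secondary library than in any primary one. CDC6 stood at 4.23, 4.16 and 3.71 against 5.70, 4.35 and 5.24. CDT1 was at 5.96, 6.94 and 7.04 against 8.04, 8.12 and 7.90, and POLA1 at 5.77, 6.37 and 5.52 against 6.67, 7.25 and 6.91. These groups do not overlap but lie close. TK1, at 24.3, 24.9 and 31.6 against 33.5, 27.2 and 36.5, did overlap. The CDT1 call ended without secondary October female 1 or any primary October female library (adjusted p from 0.065 to 0.182), and that of TK1 without secondary October female 1 or 2 or primary October female 1 or 3 (adjusted p from 0.112 to 0.206). The CDC6 call ended without any one of 11 libraries, among them every secondary October female library and primary October females 1 and 3 (adjusted p from 0.0501 to 0.191), and that of POLA1 without secondary October female 3 (adjusted p = 0.0821) or primary October female 2 (adjusted p = 0.0552). UHRF1 and MCM4 were called whichever single library was left out. Leaving out 1 library gave 4 to 8 called genes, with 5 without secondary October female 1, 5 without primary October female 1 and 4 without primary October female 3.

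Of the genes not called in October females, RPA2 and SLBP had follicle types that did not overlap, and the rest overlapped. The share of all tested genes without overlap is not given for October, so this describes single genes only. MCM2 was at 17.9, 20.7 and 20.3 in secondary and 21.1, 15.6 and 24.3 in primary cells. CDC45 was at 5.91, 6.76 and 7.12 against 7.44, 5.42 and 7.23. PCNA stood at 40.8, 38.5 and 38.4 against 42.4, 42.7 and 38.1. The reductase and G1/S genes were spread in the same way. RRM2 had 56.6, 48.3 and 48.2 against 54.3, 61.6 and 53.7, and was called without secondary October female 1 (-0.22, adjusted p = 0.0112). CCNE1 had 4.50, 4.07 and 4.77 against 4.74, 4.31 and 4.50, and E2F1 7.09, 9.37 and 8.70 against 8.04, 5.78 and 8.17. Primary October female 2 was the lowest of its group for MCM2, CDC45 and E2F1 and the highest for RRM2 and CCNE2.

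In October males the reductase genes were the pair called: RRM2 was at 45.7, 49.7 and 49.6 in secondary and 37.4, 40.7 and 39.2 in primary cells (0.30, SE 0.066, adjusted p = 0.00212), and RRM1 differed by 0.14 (SE 0.044, adjusted p = 0.0308). The RRM2 groups did not overlap. The RRM1 call ended without any one of the 6 compared libraries (0.13 to 0.15, adjusted p from 0.0585 to 0.101) and at a common total (0.05, adjusted p = 0.445). TK1 had 30.0, 27.9 and 28.9 against 23.4, 23.6 and 24.5, and UHRF1 8.34, 8.17 and 9.56 against 7.41, 7.55 and 8.07, groups apart but not called. The differences were 0.27 (SE 0.094, adjusted p = 0.0502) for TK1 and 0.16 (SE 0.07, adjusted p = 0.127) for UHRF1. TK1 was called under 5 other settings, with adjusted p = 0.0285 with the replicate number as a block. MCM2 stood at 19.8, 16.3 and 20.2 against 20.6, 18.1 and 19.6, CDC6 at 3.73, 3.32 and 3.18 against 2.73, 3.60 and 3.10, and CDC45 at 7.43, 6.42 and 8.07 against 6.09, 6.83 and 5.07, and each of these overlapped. CDC45 was called higher without secondary October male 2 (adjusted p = 0.0371), primary October male 2 (adjusted p = 0.035) or primary October female 2 (adjusted p = 0.0356). CDT1 was at 6.28, 6.98 and 5.84 against 7.29, 7.59 and 7.34, with all secondary libraries below, and not called. At a common total CDT1 was called lower (-0.27, adjusted p = 0.036). E2F1 was at 7.78, 6.82 and 7.46 against 6.77, 6.19 and 6.74, with all secondary libraries above, and not called. PCNA was at 35.1, 39.1 and 34.4 against 32.6, 34.7 and 34.6. POLA1 was at 6.09, 6.20 and 7.12 against 6.29, 6.28 and 5.92. The cyclin E genes had 3.33, 4.43 and 3.22 against 4.73, 3.97 and 4.63 for CCNE1 and 7.68, 9.81 and 8.44 against 9.16, 9.73 and 9.55 for CCNE2. Libraries of the follicle types overlapped for these 4 genes and none was called. CCNE1 was called lower without secondary October male 2 (-0.35, adjusted p = 0.0149) and at a common total (-0.30, adjusted p = 0.0319). Leaving out 1 library gave 1 to 5 called genes: 1 without secondary October male 1, secondary October male 3, primary October male 1 or primary October male 3, 4 without secondary October male 2 or primary October female 2, and 5 without secondary October female 1.

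The follicle type difference itself changed between the months. The test of that change called 37 of 38 genes in females (all but CCNE1, -0.23, SE 0.14, adjusted p = 0.192) and 37 of 38 in males (all but POLA1, -0.18, SE 0.092, adjusted p = 0.122), all in the direction of a smaller or reversed secondary excess in October, where 19.5% and 22.3% of all tested genes were called in that direction. POLA1 was called in males at a common total (-0.34, adjusted p = 0.00824) and without secondary October male 3 (-0.24, adjusted p = 0.04). The medians were -0.88 and -1.12. UHRF1 had the largest male value, -1.83 (SE 0.099, adjusted p = 9.08e-13), and RRM2 the largest female one, -1.75 (SE 0.093, adjusted p = 7.68e-13).

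**Figure D3:**
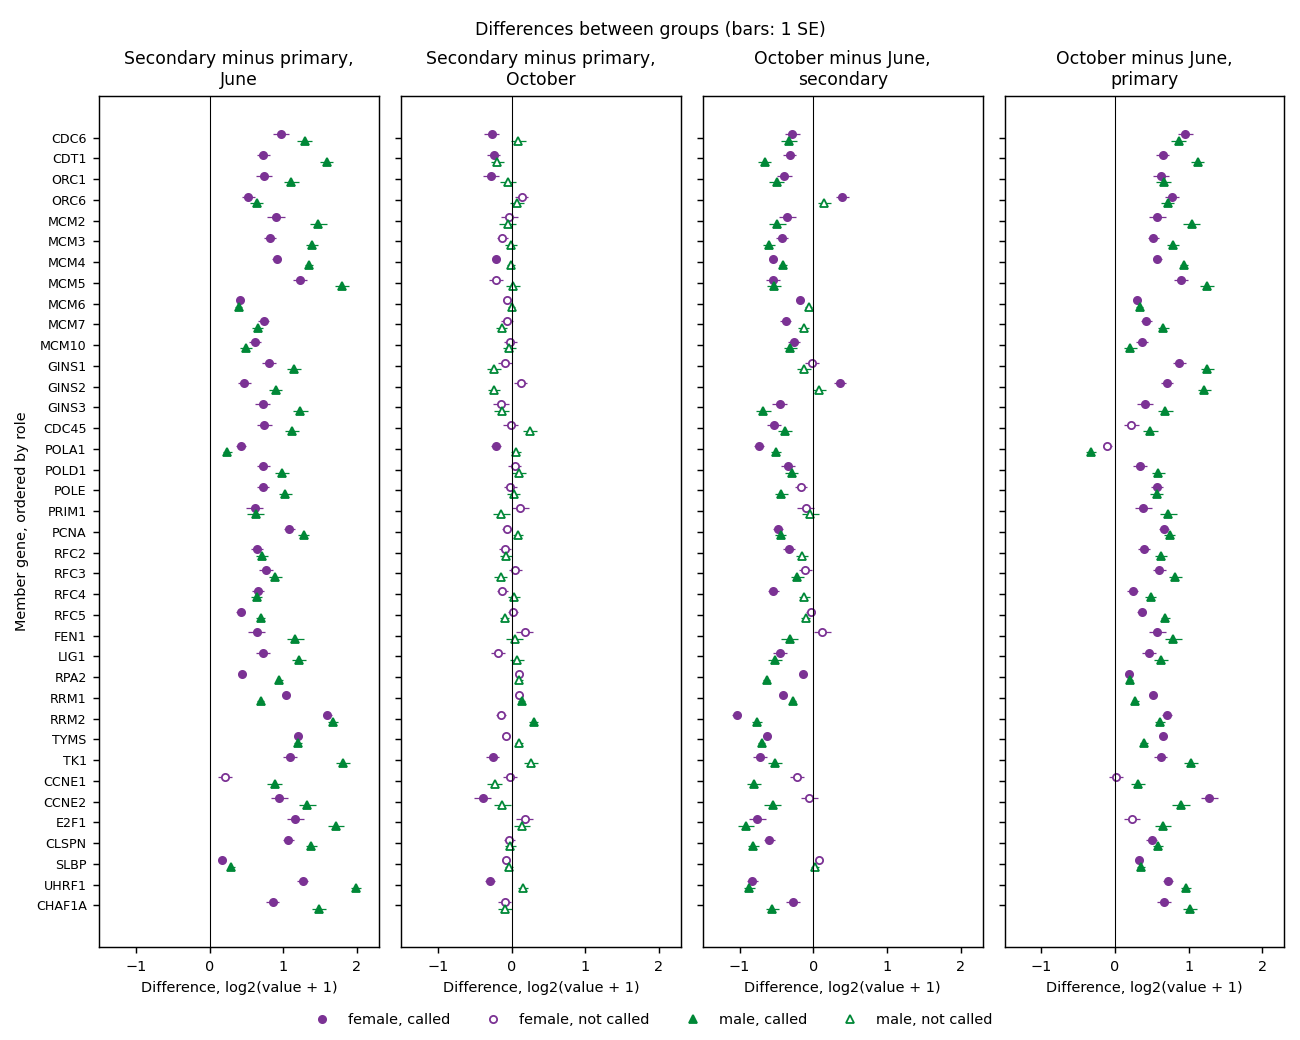
Difference on the log2(value + 1) scale (horizontal axes) for each of the 38 genes (rows, by role) in 4 comparisons, with females as purple circles, males as green triangles and bars of 1 SE. Filled symbols are called. All points lie right of 0 for follicle type in June and around 0 in October, most lie left of 0 for October minus June in secondary cells, and nearly all lie right of 0 in primary cells.

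The next question is how each follicle type changed from June to October. In secondary and in primary cells, comparisons of month share their June libraries with the June comparison of follicle types. They share their October libraries with the October one. The test of a change in the follicle type difference is built from the same group means, so these results are not independent of each other. In secondary cells 27 of 38 genes fell and 2 rose in females, and 28 fell in males, where 27.1% and 31.2% of all tested genes fell and 24.2% rose in females. The medians were -0.35 and -0.44. In both sexes 23 genes fell, and the share of all tested genes that did so was not counted. All 4 nucleotide supply genes fell in both sexes. RRM2 changed by -1.04 (SE 0.066, adjusted p = 8.43e-12) in females and -0.76 (SE 0.066, adjusted p = 1.08e-09) in males. Its female change was the only one of the 38 of at least 2-fold in value + 1, against 2.45% of all tested genes in females. TYMS changed by -0.63 and -0.70, TK1 by -0.72 and -0.52, and RRM1 by -0.41 and -0.27. UHRF1 changed by -0.83 (SE 0.07, adjusted p = 1.21e-09) and -0.87 (SE 0.07, adjusted p = 3.59e-10), from a lowest June value of 15.9 to a highest October value of 9.56. E2F1 changed by -0.76 and by -0.92 (SE 0.11, adjusted p = 2.83e-07), the lowest value in males, and CLSPN by -0.60 and -0.81. PCNA changed by -0.48 and -0.44, and POLA1 by -0.74 and -0.50.

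The 6 helicase subunits had a median change of -0.40 in females and -0.45 in males. MCM2 changed by -0.35 (SE 0.12, adjusted p = 0.0166) in females, a call that ended without secondary June female 2 (adjusted p = 0.0549), secondary June female 3 (adjusted p = 0.0678) or secondary October female 1 (adjusted p = 0.0748), and by -0.49 in males. All 6 subunits fell in females and 4 of 6 in males, where MCM6 (-0.06) and MCM7 (-0.13) were not called. CDC6 changed by -0.29 (SE 0.1, adjusted p = 0.0244) in females, a call lost without secondary June female 2 (adjusted p = 0.0684), secondary June female 3 (adjusted p = 0.0657) or secondary October female 3 (adjusted p = 0.0952), and by -0.33 in males. The other way went ORC6 and GINS2 in females, which rose by 0.39 (SE 0.09, adjusted p = 0.000943) and 0.36 (SE 0.085, adjusted p = 0.00116). ORC6 went from 8.97, 9.01 and 8.89 to 13.8, 11.8 and 10.7, and GINS2 from 5.28, 4.67 and 4.26 to 7.70, 5.66 and 5.85. In males neither was called (0.15 and 0.08). GINS1, RFC5, SLBP and PRIM1, the small primase subunit, were called in neither sex. In males the smallest called change was that of RFC3, at -0.22 (SE 0.09, adjusted p = 0.0433), and this call ended without any one of 5 of the 6 compared libraries, all but secondary October male 2 (adjusted p from 0.051 to 0.124).

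Primary cells went the other way. From June to October 34 of the 38 genes rose in females and 37 in males, where 22.7% and 26% of all tested genes rose. The same 34 genes were among those that rose in males, and the share of all tested genes rising in both was not counted. The medians were 0.55 and 0.67, against -0.0027 and 9e-04 over all tested genes. Rises of at least 2-fold in value + 1 were made by 7 genes in males, where 1.32% of all tested genes rose that far. Licensing factors rose by 0.62 to 0.95 in females and 0.66 to 1.12 in males, and the helicase subunits by 0.29 to 0.89 and 0.33 to 1.24. CCNE2 had the largest female rise (1.28, SE 0.12, adjusted p = 5.46e-09), followed by CDC6 (0.95, SE 0.1, adjusted p = 8.08e-08). GINS1 had the largest male rise (1.25, SE 0.094, adjusted p = 1.18e-10), followed by MCM5 (1.24, SE 0.097, adjusted p = 2.44e-10). RRM2 rose by 0.70 and 0.61, TK1 by 0.62 and 1.03 and PCNA by 0.67 and 0.74. The smallest called rises in females were those of RPA2, a subunit of the single-strand binding protein (0.19, SE 0.047, adjusted p = 0.00184), and RFC4 (0.24, SE 0.077, adjusted p = 0.0139), whose call ended without primary June female 3 (adjusted p = 0.0637) or primary October female 2 (adjusted p = 0.0608). The RPA2 call ended with the compared groups alone (0.19, adjusted p = 0.0677).

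In primary females CDC45, E2F1, CCNE1 and POLA1 were not called, and their June and October libraries overlapped. CDC45 differed by 0.22 (SE 0.098, adjusted p = 0.0684) and E2F1 by 0.23 (SE 0.11, adjusted p = 0.0993). Without primary October female 2, which was the lowest library of its group for both, CDC45 was called at 0.35 (adjusted p = 0.00416) and E2F1 at 0.37 (adjusted p = 0.00663). CCNE1 differed by 0.01 (SE 0.097, adjusted p = 0.949). POLA1 was the exception in males: it changed by -0.32 (SE 0.065, adjusted p = 0.000232), a fall, while the other 37 genes rose. Of all tested genes 29.5% fell in that comparison. Across the tests, 20 of the 38 genes both fell in secondary cells and rose in primary cells from June to October in both sexes. How many of all tested genes had this joint pattern was not counted, so the 20 only describe the list.

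By the number of calls the sexes differed most in primary June cells. There 26 of the 38 genes were called lower in males and 2 higher, where 22.3% and 23.1% of all tested genes were called, with a median of -0.33. TK1 (-0.83, SE 0.094, adjusted p = 1.66e-07), UHRF1 (-0.72, SE 0.07, adjusted p = 1.26e-08) and GINS1 (-0.65, SE 0.094, adjusted p = 5.21e-06) had the largest differences. The pair called higher in males was MCM10, which helps to start the helicase (0.27, SE 0.085, adjusted p = 0.0112), and RRM1 (0.16, SE 0.044, adjusted p = 0.00434). MCM10 stood at 7.98, 7.60 and 8.58 in males and 6.13, 6.34 and 7.00 in females, and RRM1 at 29.2, 27.9 and 27.5 against 25.3, 25.2 and 24.8. For both genes every male library was above every female one.

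In primary October cells 13 genes were called lower in males and 1 higher, where 17.8% and 15.8% of all tested genes were called. CCNE2 (-0.77, SE 0.12, adjusted p = 1.53e-05), CDC6 (-0.56, SE 0.1, adjusted p = 0.000171) and RRM2 (-0.52, SE 0.066, adjusted p = 1.15e-06) led the lower ones, and RFC5 was the higher one (0.16, SE 0.062, adjusted p = 0.0494). In secondary October cells 7 genes were called, all lower in males, where 20.9% of all tested genes were called lower, with CCNE2 (-0.51, SE 0.12, adjusted p = 0.00134) and GINS1 (-0.42, SE 0.094, adjusted p = 0.000982) the lowest. Secondary June cells had 5 genes higher and 7 lower in males, where 20.9% and 18.6% of all tested genes were called. RPA2 was the highest (0.49, SE 0.047, adjusted p = 1.81e-08) and RRM2 the lowest (-0.35, SE 0.066, adjusted p = 0.000187). This split depended on the scaling, with 7 higher and 4 lower at a common total, and without secondary June female 1 the count was 7 in place of 12. CCNE2 was called lower in males in all settings but secondary June cells (-0.01), and its primary June call ended without primary June female 2 (-0.32, adjusted p = 0.0524). GINS1 was called lower in males in all 4 (-0.31, -0.42, -0.65 and -0.27).

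Tests of whether the follicle type difference itself depended on sex called 22 of the 38 genes in June, 21 with a larger secondary excess in males and 1, RRM1, with a smaller one (-0.34, SE 0.062, adjusted p = 0.000131), where 20.9% and 20.4% of all tested genes were called. CDT1 (0.86, SE 0.13, adjusted p = 9.12e-06), TK1 (0.73, SE 0.13, adjusted p = 0.000128) and UHRF1 (0.73, SE 0.099, adjusted p = 3.17e-06) had the largest values. In October 5 were called, 13.2% of the list, where 13.7% of all tested genes were called higher and 13% lower. The share of the list was thus not above the background. Higher were TK1 (0.53, SE 0.13, adjusted p = 0.00463), RRM2 (0.45, SE 0.093, adjusted p = 0.000831), UHRF1 (0.45, SE 0.099, adjusted p = 0.0015) and POLA1 (0.27, SE 0.092, adjusted p = 0.0365). GINS2 was lower (-0.36, SE 0.12, adjusted p = 0.028). The October count was 3 without secondary October female 1 or secondary October male 3 and 8 without primary October female 2, and the POLA1 call was lost at a common total (0.19, adjusted p = 0.168) and without any one of 6 libraries (adjusted p from 0.0511 to 0.118).

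The 38 genes moved unequally. The ratio of the highest to the lowest group mean had a median of 2.62, against 1.54 over all tested genes, and ran from 1.31 for SLBP to 4.82 for UHRF1. RRM2 (4.20), CDC6 (4.01) and TK1 (4.01) followed UHRF1, and SLBP was preceded by MCM6 (1.50). As a description over the 8 group means, 27 genes had r of at least 0.9 with the mean of the other 37, and the median was 0.942. MCM5 was closest to the rest (r = 0.996) and POLA1 farthest (r = 0.271). These points share the same libraries and scaling.

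POLA1 stood apart by its level in October. Its 12 June libraries ran from 7.11 to 11.1 and its 12 October libraries from 5.52 to 7.25, so the months overlapped only between 7.11 and 7.25. It changed by -0.74 (SE 0.065, adjusted p = 2.8e-09) in secondary females and -0.50 (SE 0.065, adjusted p = 7.68e-07) in secondary males, and in primary females the difference was -0.10 (SE 0.065, adjusted p = 0.195). RPA2 stood apart in 1 group: the secondary June male libraries were at 39.7, 41.7 and 39.2, and the other 21 libraries ran from 19.0 to 28.5. ORC6 and GINS2 had their highest means in secondary October females, and GINS1, CCNE2 and SLBP in primary October females. SLBP ranged over 51.0 to 72.3 in the 24 libraries, with the lowest group means in primary June cells.

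Genes of the wider replication pathway, in a list chosen with earlier results of these data known, had smaller median differences than the 38 genes in the June and month comparisons. Of 44 other replication factors tested, 32 were called higher and 3 lower in secondary June females, and 29 and 5 in males, with medians of 0.34 and 0.42. Of all tested genes 25% were called higher and 24.3% lower in females, and 30.7% and 28.9% in males. POLE2, a subunit of the leading strand polymerase, had 1.18 and 1.27, and ASF1B, a histone chaperone, 1.12 and 1.51. DNMT1, the maintenance methyltransferase that UHRF1 recruits, had 0.65 and 0.78. In October 13 of the 44 were called lower and none higher in females, where 17.2% and 18.3% of all tested genes were. In males 4 were called lower and 1 higher, where 7.63% and 10.9% of all tested genes were, so the share called lower lies near the background. HELLS, a chromatin remodeller, had -0.36 in females and -0.40 in males. From June to October 19 of the 44 fell and 4 rose in secondary females, where 27.1% of all tested genes fell and 24.2% rose. In secondary males 17 fell and 9 rose, where 31.2% of all tested genes fell and 25.3% rose. In primary females 33 rose and 2 fell, where 22.7% of all tested genes rose and 25.6% fell. In primary males 29 rose and 4 fell, where 26% of all tested genes rose and 29.5% fell. SAMHD1, which breaks down deoxynucleotides, was among those that fell in primary females (-0.40).

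G1 regulators and inhibitors were mixed. Of 31 tested, 13 were called higher and 8 lower in secondary June females, and 15 and 9 in males. The shares called higher lie above the 25% and 30.7% of all tested genes in females and males. Those called lower lie near the 24.3% and 28.9% of all tested genes. CCND2, a D-type cyclin that acts early in G1, went against the 38 genes in June: it was lower in secondary cells, at -1.13 (SE 0.038, adjusted p = 1.27e-16) in females and -1.52 (SE 0.038, adjusted p = 2.62e-19) in males. It was also lower in secondary cells in October (-0.74 and -0.32). From June to October it fell in all 4 settings, with changes of -0.77 and -0.35 in secondary and -1.16 and -1.56 in primary females and males. CDK2, the kinase partner of cyclin E, was higher in secondary June cells (0.80 and 0.82), as was CKS1B, which helps the cyclin kinases (0.96 and 1.05). CDKN1A, the p21 inhibitor, had -0.65 in June males and -0.28 in June females, and 0.38 and -0.48 in October females and males. CDKN1C, the p57 inhibitor, had -1.22 in June males and -1.49 in October females. Its values in June females and October males are not given here. No gene of this list was below -1.13 in June females or -0.48 in October males.

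Mitosis genes had larger median differences in June than the replication genes. All 40 tested were called higher in secondary June cells in both sexes, where 25% and 30.7% of all tested genes were. The medians were 1.51 and 1.67 in females and males. In October 30 of 40 were called lower in secondary females (median -0.34), where 17.2% of all tested genes were. In October males 27 of 40 were called higher in secondary cells (median 0.29), where 10.9% of all tested genes were. KIF20A, a kinesin of late mitosis, had -0.55 (SE 0.058, adjusted p = 5.86e-08) in females and 0.62 (SE 0.058, adjusted p = 3.72e-08) in males. The test of whether the October follicle type difference depended on sex called 37 of the 40, all higher in males (median 0.65), beside 5 of the 38 replication genes. Of all tested genes 13.7% were called higher in males by that test.

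The summed signal of the 38 replication genes divided by that of the 40 mitosis genes describes this balance, with the strong genes of each list weighing most. In secondary June females RRM2 (106), TYMS (92.0) and MCM7 (71.3) were the largest parts of a replication sum of 972. It was 0.710 ± 0.00927 in secondary June females and 0.738 ± 0.0211 in secondary June males (SD, n = 3). In primary June cells it was 1.03 ± 0.0269 and 1.03 ± 0.0121. Both secondary June groups therefore lay below every other group. In October it was 1.20 ± 0.0514 in secondary and 1.01 ± 0.0497 in primary females, and 0.925 ± 0.0225 in secondary and 1.12 ± 0.00361 in primary males. In October the order of the follicle types was opposite in females and males, with no overlap of libraries in either.

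**Figure D4:**
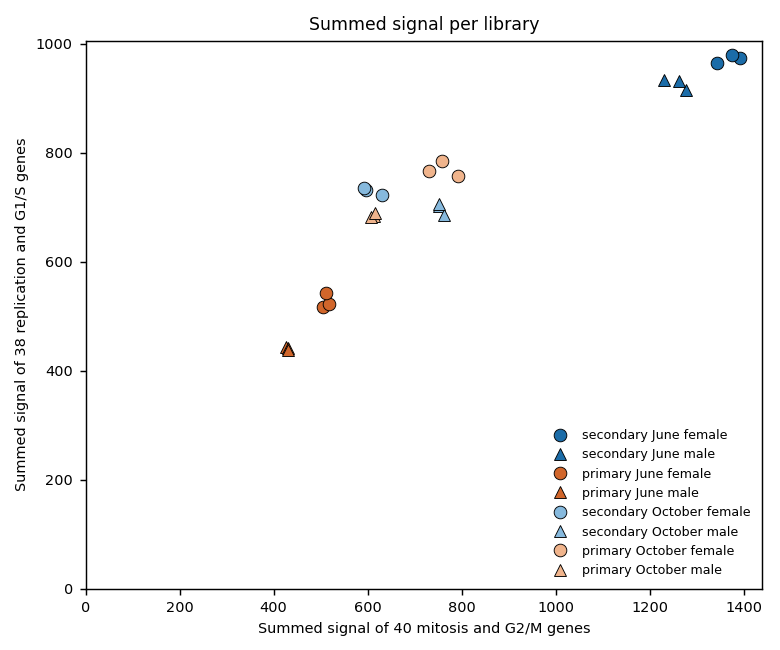
Summed deposited signal of the 40 mitosis genes (horizontal axis) and of the 38 replication and G1/S genes (vertical axis), both axes starting at 0. Each point is a library, coloured by follicle type and month. Circles are female and triangles male libraries. The replication sum falls from 972 to 729 and the mitosis sum from 1369 to 606 between June and October in secondary females.

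Markers of other cell types moved with some of these groups. The summed signal of the keratinocyte list, of which 9 of 13 genes met the requirement and 3 were not analysed here, had means of 3.19 to 5.77 in secondary June cells and 3.95 in primary June females, 35.8 in primary June males and 37.3 to 72.9 in October groups other than secondary females, which stood at 312. KRT5 and KRT14, keratins of basal epithelium, had means of 197 and 77.5 there, and in secondary June males of 0.0233 and 0.143. In the secondary to primary comparison of October females all 9 keratinocyte genes were called higher in secondary cells, where 18.3% of all tested genes were. The mitochondrial share of signal was 11.7% in secondary October females against 9.07% to 10.6% in the other 7 groups. By library it was 12.7%, 11.2% and 11.2% there, and the highest library elsewhere was primary October female 2, at 10.85%. Of the 38 genes 2, ORC6 and GINS2, had their highest group mean in secondary October females, where 16.0% of all tested genes had theirs. The part of the keratinocyte markers in the results was not tested. Of the other lists, 1 of 6 melanocyte genes, 1 of 7 endothelial genes and 4 of 8 immune genes met the requirement, with summed means of 2.25 to 4.60, 0.400 to 2.89 and 12.1 to 38.5. The melanocyte enzymes TYRP1 and DCT and the endothelial cadherin CDH5 were at or near 0 in all 8 groups. Smooth muscle and pericyte markers, of which 7 of 10 met the requirement, were summed at 9744 to 15070. This sum was highest in primary June males, where that of the 38 genes was lowest. ACTA2 and TAGLN made up most of it, with group means of 4674 to 7834 and 4276 to 6348. MYH11 had group means of 4.54 to 7.89, and RGS5, KCNJ8 and ABCC9 did not meet the requirement. The part of these markers was not tested.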

How the data were processed

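RNA was sequenced from dermal papilla cells in 24 libraries, 3 per group. The deposited values are a normalised signal per gene and library, with depth and genome build not given in the sources used here. Per the submitters' processing notes, kallisto 0.46.1 and sleuth 0.30.0 were used, with no role or order stated. All 38 identifiers and symbols matched the RefSeq gene table of assembly ARS1.2, used for names only. Genes with a signal of at least 1 in 3 libraries were kept, transformed to log2(value + 1). The model, run with limma 3.58.1 under R 4.3.3 with statmod 1.5.0, had 8 group means, a variance trend and robust estimation. The 16 comparisons used Benjamini-Hochberg adjustment over 13049 genes, with calls at 0.05. The fit was tested on simulated data. Members and lists were chosen with earlier results of these data known. Genes named are all 38, with values for 12 chosen by role, the extremes of each comparison of type or month, members called against the majority, and at most 6 genes by p of each other list. Alternatives were other filters, a pseudocount of 0.1, other scalings, non-robust estimation, the compared groups alone, a replicate block and leaving out each library.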

Additional observations from a re-analysis of the deposited data

Results flagged for a closer look

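Among the 12 genes given in every library, the test of a change in the follicle type difference between June and October passed for 11 in each sex (limma, Benjamini-Hochberg). Values are the October difference of secondary from primary cells minus that of June, on the log2(value + 1) scale. In females they were MCM2 (-0.93), PCNA (-1.14), RRM2 (-1.75), CDC45 (-0.75), CDC6 (-1.24), CDT1 (-0.97), POLA1 (-0.63), TK1 (-1.34), CCNE2 (-1.34), E2F1 (-0.99) and UHRF1 (-1.55). In males they were MCM2 (-1.53), PCNA (-1.19), RRM2 (-1.38), CDC45 (-0.87), CDC6 (-1.2), CDT1 (-1.78), TK1 (-1.55), CCNE1 (-1.11), CCNE2 (-1.45), E2F1 (-1.57) and UHRF1 (-1.83). CCNE1 in females and POLA1 in males did not pass, and POLA1 passed in males at a common total (-0.34, adjusted p = 0.00824) and without secondary October male 3 (-0.24, adjusted p = 0.04).

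The test of a different follicle type difference in males and females passed for 7 of the 12 in June. A larger secondary excess in males was found for MCM2 (0.57), CDC45 (0.38), CDT1 (0.86), TK1 (0.73), CCNE1 (0.67), E2F1 (0.55) and UHRF1 (0.73). By that test 20.9% of all tested genes were called higher. The June call of CDC45 ended without any one of 9 libraries (adjusted p from 0.0528 to 0.0774). In October the test passed for RRM2 (0.45), POLA1 (0.27), TK1 (0.53) and UHRF1 (0.45), where 13.7% of all tested genes were called higher. POLA1 was lost with the compared groups alone (adjusted p = 0.102) and at a common total (0.19, adjusted p = 0.168).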

How the results depend on the processing

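The counts of called genes changed most where few were called. For secondary against primary October females the count of 8 was 4 with no filter on low values, 5 with a pseudocount of 0.1 and 0 with the compared groups alone, where 7 genes had an unadjusted p under 0.05. For October males the count of 2 was 7 at a common total (1 higher, 6 lower), 4 with the replicate number as a block and 5 with the compared groups alone. For males against females in secondary June cells the count of 12 was 11 at a common total, with 7 higher and 4 lower in place of 5 and 7. For the dependence on sex in October the count of 5 was 3 with the compared groups alone. The cause was not tested.

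Leaving out 1 library gave 36 to 38 and 38 called genes for follicle type in June females and males, 4 to 8 and 1 to 5 in October, 26 to 30 and 26 to 28 for month in secondary females and males, and 33 to 34 and 36 to 38 in primary ones. For sex the ranges were 7 to 14 in secondary June, 5 to 8 in secondary October, 24 to 29 in primary June and 10 to 15 in primary October cells. For the change of follicle type difference with month they were 33 to 37 in females and 37 to 38 in males, and with sex 19 to 23 in June and 3 to 8 in October.

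Of 1648 refits of 206 single values under the other alternatives, 1614 kept their call, 19 lost it, 15 gained it and none reversed. At a common total of 1000000 the median over all tested genes in the male change of follicle type difference with month moved from -0.0092 to -0.167, and that of the 38 genes was -1.27. In that setting 5058 genes were called higher and 2817 lower in June males in place of 4006 and 3773, 742 and 2017 in October males in place of 1416 and 996, and 1553 and 4934 for that change in place of 2821 and 2909.

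Whether replicate numbers pair the libraries was not settled. In different groups 84 pairs of libraries with the same number had correlations of their deviations from -0.281 to 0.348. Their median was 0.034, against -0.017 for pairs with other numbers, and 11 of 24 libraries correlated best with their own number. The block changed 1 single call, that of TK1 in October males, and no count beyond 1.5 times other than the 4 above. Over all tested genes it raised the number called in every comparison. For follicle type this number went from 6435 to 6623 in June females and from 2412 to 2562 in October males. Read depth is unknown, so weak genes such as CDC6 in primary June cells carry an error that only the spread between 3 libraries describes.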
